A study of Mus musculus with 7 samples.

Results

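The Cyp2c cluster is a tandem array of cytochrome P450 genes on mouse chromosome 19. It was examined as the mm9 window chr19:38950001-40350000, 1400 kb long, for islands of H3K27me3, stretches of chromatin with more of this histone mark than a random spread of reads would give. Of 122262 islands in the lists of 7 livers, 7 overlapped the window by at least 1 bp. They fell in 2 places and were absent from the rest of the cluster. The lists came from chromatin immunoprecipitation and sequencing of single livers of wild-type male CD-1 mice, an outbred stock, aged 7 weeks. TCPOBOP at 3 mg/kg was injected into 4 of the mice, and the other 3 received the vehicle alone, corn oil with 1% DMSO. All livers were collected 27 h after injection, and each sample was a separate liver. In whole liver, fewer cells that carry the mark and less mark per cell cannot be told apart.

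H3K27me3 is written by Polycomb repressive complex 2 and is found over genes that are kept silent. In mammals this complex gathers mainly at CpG-rich promoters without active transcription. TCPOBOP is an agonist of CAR, the constitutive androstane receptor. In mouse hepatocytes CAR binds DNA as a partner of the retinoid X receptor and raises transcription of enzymes that clear drugs. The Cyp2c genes encode such enzymes, membrane-bound monooxygenases of the endoplasmic reticulum that oxidise drugs, fatty acids, retinoids and bile acids, and several of them are highly expressed in liver.

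RefSeq lists 18 Cyp2c genes and pseudogenes between Hells and Pdlim1 on chromosome 19, 14 of them protein-coding and 4 pseudogenes, with no other protein-coding gene among them. From the Hells side, Cyp2c55 comes first of the coding genes. Its enzyme hydroxylates arachidonic acid, and the gene is known to respond strongly to CAR ligands in liver. Cyp2c65 and Cyp2c66 follow. Next come Cyp2c29, an arachidonic acid epoxygenase of liver that responds to CAR, Cyp2c39, whose enzyme hydroxylates retinoic acid, and Cyp2c38, another arachidonic acid epoxygenase. After Cyp2c67 and Cyp2c68 lies Cyp2c40, a hydroxylase of arachidonic acid, and then Cyp2c69. The far end holds the CAR-responsive Cyp2c37, another hydroxylase of arachidonic acid, then Cyp2c54 and Cyp2c50, whose enzymes oxidise arachidonic and linoleic acid, and last Cyp2c70, which makes muricholic acids from other bile acids in mouse liver. This order is from the build GRCm38.p6. In that build Cyp2c39 has 2 promoters, and the promoter of Cyp2c38 lies between them, so the order of these genes depends on the start used. The islands are in mm9, the coordinates of the 2 builds are not interchangeable, and no mm9 gene annotation was used here. No island was therefore assigned to a gene, and the bounds of the window could not be checked against gene positions.

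Promoter sequences of the 3 CAR-responsive genes are given because CpG content is the known feature of Polycomb target promoters. Each is the 250 bases before the gene start, 5′ to 3′, from RefSeq on GRCm38.p6, with CG pairs in capitals. Cyp2c55 is chr19:39006769-39007018, Cyp2c29 is chr19:39286835-39287084 and Cyp2c37 is chr19:39992174-39992423, all on the plus strand of that build.
Cyp2c55: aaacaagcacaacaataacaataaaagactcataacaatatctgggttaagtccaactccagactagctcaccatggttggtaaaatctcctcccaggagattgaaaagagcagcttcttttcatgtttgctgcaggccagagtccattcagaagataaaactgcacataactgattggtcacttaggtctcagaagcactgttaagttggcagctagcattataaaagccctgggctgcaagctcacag
Cyp2c29: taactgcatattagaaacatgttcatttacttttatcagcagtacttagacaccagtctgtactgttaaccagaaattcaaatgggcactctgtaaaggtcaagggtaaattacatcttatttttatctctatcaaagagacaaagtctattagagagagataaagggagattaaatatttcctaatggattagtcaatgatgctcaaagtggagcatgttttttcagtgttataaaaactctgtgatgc
Cyp2c37: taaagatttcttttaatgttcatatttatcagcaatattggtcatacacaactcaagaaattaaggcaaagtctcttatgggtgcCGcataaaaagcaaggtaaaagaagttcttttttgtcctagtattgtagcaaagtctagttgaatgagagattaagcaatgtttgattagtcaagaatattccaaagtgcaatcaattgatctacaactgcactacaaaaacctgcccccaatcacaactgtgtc

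The Cyp2c promoters held few CG pairs. The letters CG, which read the same on both strands, occurred 0 times before Cyp2c55, 0 times before Cyp2c29 and 1 time before Cyp2c37. Promoters were found for 8 of the 9 named genes (Cyp2c55, Cyp2c29, Cyp2c37, Cyp2c38, Cyp2c39, Cyp2c40, Cyp2c50 and Cyp2c70), with 2 for Cyp2c39; the other named gene is Cyp2c54. These 9 promoters had between 0 and 4 CG pairs with a median of 1, and 7 of them had at most 2. Over the 32851 promoters of the table the median was 6, 29.0% had at most 2, and 92.1% had at least 1. Cyp2c70 had the most of the named genes, with 4, a number not exceeded by 44.4% of all promoters. The second Cyp2c39 promoter had 3. The promoters of Cyp2c65, Cyp2c66, Cyp2c67, Cyp2c68 and Cyp2c69 had 1 or 2. GC content ran from 29.2% to 42.4% in the promoters of the named genes, against a median of 52.4% over the table. These counts describe letters of the reference genome and do not place the mark on any promoter.

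**Figure D1:**
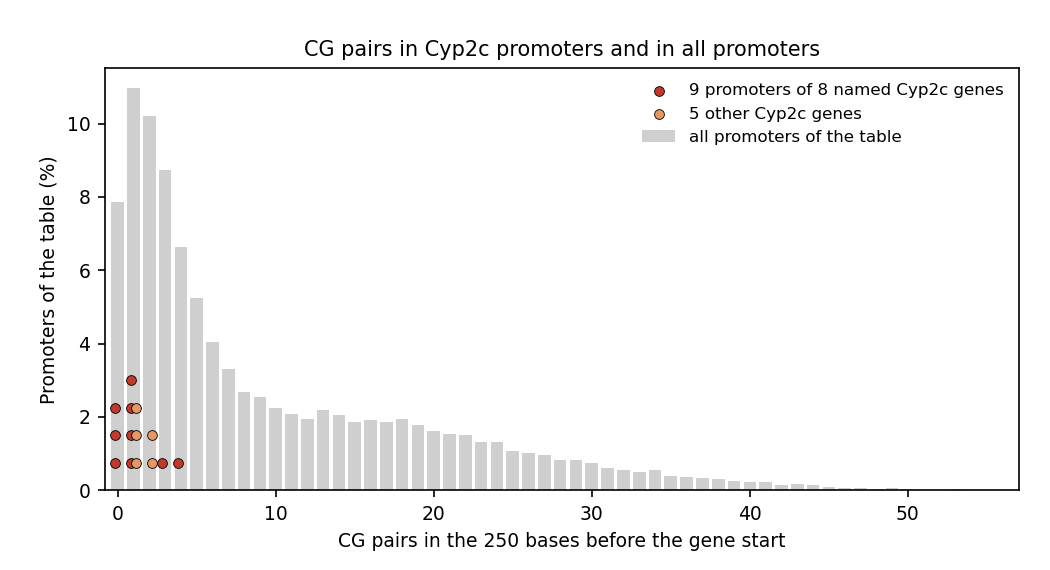
Grey bars give the percentage of 32851 RefSeq promoters (vertical axis) by the number of CG pairs in the 250 bases before the gene start (horizontal axis). Each dot is a Cyp2c promoter, placed by its number of CG pairs and stacked for visibility only; all lie at 4 or fewer, at the low end of the bars.

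Almost the whole Cyp2c window was free of H3K27me3 islands in every liver. Together the 7 islands touched 15.2 kb, so that 1384.8 kb, 98.9% of the window, was free in all 7 livers. Among TCPOBOP livers, islands covered 4.40 kb in replicate 1, 0 kb in replicate 2, 5.20 kb in replicate 3 and 12.4 kb in replicate 4. Among vehicle livers they covered 0 kb in replicate 1, 13.6 kb in replicate 2 and 8.00 kb in replicate 3. Each group thus had a liver without any island in the window, and the 2 groups overlapped. In the TCPOBOP livers the numbers of islands were 1, 0, 1 and 2, and in the vehicle livers 0, 2 and 1.

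The longest stretch without an island in any liver ran from 38902001 to 40004800. It was 1102.8 kb long, and 1054.8 kb of it, 75.3% of the window, lay inside the bounds. A second, from 40033601 to 40646400, was 612.8 kb long with 316.4 kb inside. Between them stood the 2 places with islands, separated by 13.6 kb. In the 50 kb tiles of the window, 27 of 28 had no island in any liver and 1 held all of the islands. Among 17322 autosomal stretches between islands of any liver, the 2 long stretches ranked 140 and 346 by length, so a number of longer ones existed elsewhere.

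**Figure D2:**
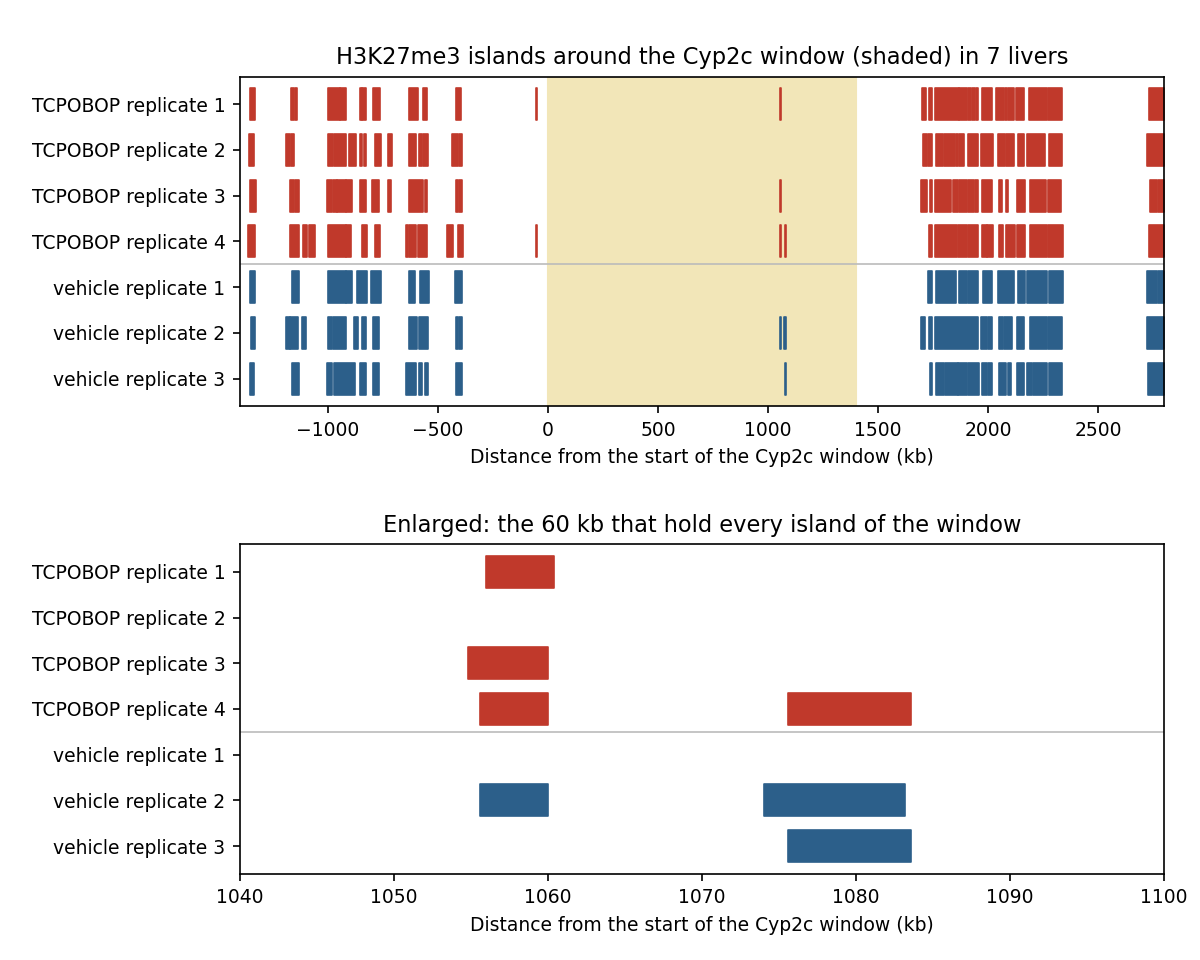
Bars are H3K27me3 islands by liver (rows; TCPOBOP in red, vehicle in blue) along the distance in kb from the start of the Cyp2c window, with the window shaded in the upper panel, where thin outlines keep narrow islands visible. The lower panel enlarges the part with islands; TCPOBOP replicate 2 and vehicle replicate 1 have none.

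By liver, the free stretch was longer where no island stood inside. In TCPOBOP livers the longest stretch reaching into the window was 1104 kb in replicate 1, 2098 kb in replicate 2, 1444.8 kb in replicate 3 and 1104 kb in replicate 4. In vehicle livers it was 2117.6 kb in replicate 1, 1448 kb in replicate 2 and 1468.4 kb in replicate 3. The median stretch between islands of a list was only 17.6 to 25.2 kb. In TCPOBOP replicate 2 and vehicle replicate 1 a single stretch spanned the entire window and the sequence on either side of it, ending at 40655200 and 40678800.

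Just outside the bounds, the nearest island on the lower side lay 48.0 kb away in TCPOBOP replicate 1 and 48.4 kb away in TCPOBOP replicate 4. Both were 6.80 kb wide and nearly coincided, from 38895201 to 38902000 in the list of replicate 1 and from 38894801 to 38901600 in that of replicate 4. They were weak for their lists, with scores of 83.1 in replicate 1 and 80.3 in replicate 4. Of the islands of the same list, 19.8% and 6.77% scored lower. No island stood there in the other 5 livers, whose nearest one was 388.8 to 392.8 kb from the window. On the upper side the nearest island was 296.4 to 335.2 kb away in the 7 livers. With the window widened by 100 kb at each end these 2 islands were counted as well, and mean cover was then 1.70 kb higher in TCPOBOP than in vehicle livers (exact permutation p = 0.771).

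The window stood apart from its surroundings. Islands covered 0.445 ± 0.389% of it and 31.7 ± 1.62% of the 1400 kb on both sides (SD, n = 7 livers). The difference within a liver was -31.3 ± 1.59 percentage points, lower in 7 of 7 livers (two-sided exact permutation test over signs, p = 0.0156, the smallest that 7 livers allow). That test addresses only whether the livers agree at this 1 window. How often other windows differ as much from their sides was not counted. The lower side alone was 19.8% to 29.1% covered and the upper side 35.7% to 41.1%. Both sides together were 31.6 ± 1.97% covered in TCPOBOP livers (SD, n = 4) and 31.9 ± 1.39% in vehicle livers (SD, n = 3). Free windows of this length were not rare. Of 1706 autosomal tiles of 1400 kb, 6.27% had a mean cover as low as that of the Cyp2c window or lower, and 80 had no island in any liver, while the median tile had 20.1%. The window lies in the low tail of the genome and next to densely covered sequence, but is not alone there.

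**Figure D3:**
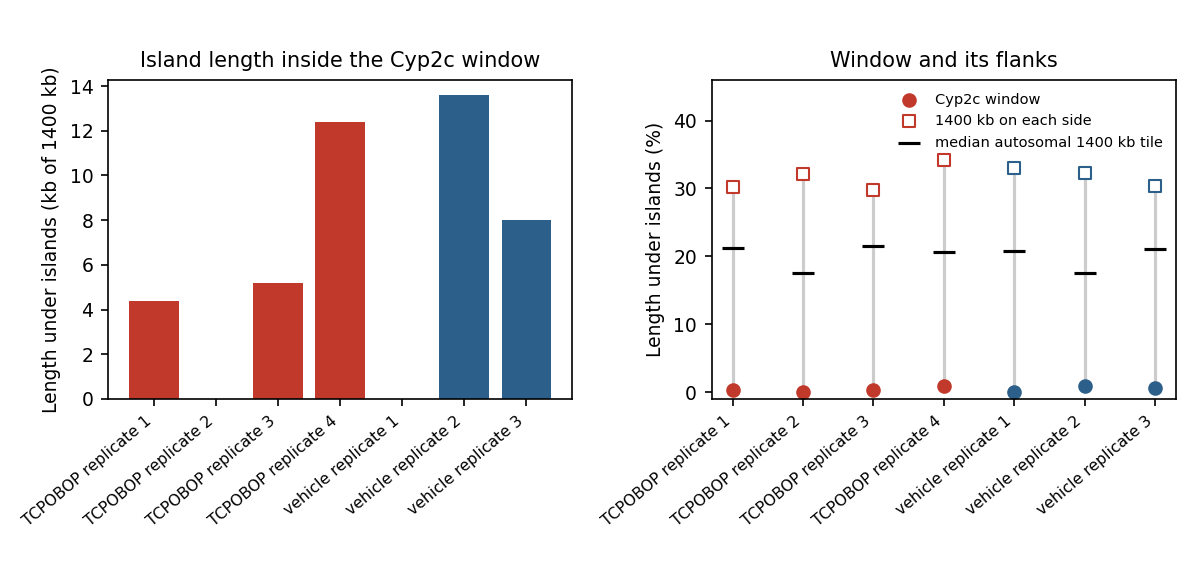
Left, kb under islands inside the 1400 kb Cyp2c window for each liver (bars; TCPOBOP red, vehicle blue), from 0 to 13.6 kb. Right, the percentage of sequence under islands for each liver in the window (filled circles), in the 1400 kb on each side (open squares) and in the median autosomal tile of 1400 kb (black dash); the window lies below 1% in all 7 livers and its sides lie at 29.8% or above.

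The first place with islands, the narrow region, spanned 5.60 kb from 40004801 to 40010400. Its islands were found in 3 of 4 TCPOBOP livers and in 1 of 3 vehicle livers. In TCPOBOP livers 78.6% of the region was under an island in replicate 1, 0% in replicate 2, 92.9% in replicate 3 and 78.6% in replicate 4. In vehicle livers the values were 0% in replicate 1, 78.6% in replicate 2 and 0% in replicate 3. The islands agreed closely in position, with starts within 1.20 kb and ends within 0.400 kb of each other, and shared a core of 4.00 kb from 40006001 to 40010000. Mean cover was 62.5 ± 42.2% in TCPOBOP livers (SD, n = 4) and 26.2 ± 45.4% in vehicle livers (SD, n = 3). The difference of 36.3 percentage points (SE 28.4) did not pass the test across all regions (limma, unadjusted p = 0.205, adjusted p = 1), and no liver left out brought the adjusted p under 0.05. The difference was 57.1 points without TCPOBOP replicate 2 (limma, unadjusted p = 0.0366, adjusted p = 0.941), 62.5 points without vehicle replicate 2, and 23.2 points without vehicle replicate 1 or without vehicle replicate 3.

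The second place, the wider region, spanned 9.60 kb from 40024001 to 40033600 and had an island in 1 of 4 TCPOBOP livers and in 2 of 3 vehicle livers. In TCPOBOP livers 0% was covered in replicates 1, 2 and 3 and 83.3% in replicate 4. In vehicle livers 0% was covered in replicate 1, 95.8% in replicate 2 and 83.3% in replicate 3. The islands shared a core of 7.60 kb from 40025601 to 40033200, with starts within 1.60 kb and ends within 0.400 kb. Mean cover was 20.8 ± 41.7% in TCPOBOP livers (SD, n = 4) and 59.7 ± 52.1% in vehicle livers (SD, n = 3). The difference of -38.9 points (SE 31.7) did not pass either (limma, unadjusted p = 0.224, adjusted p = 1). Without vehicle replicate 1 it was -68.8 points (limma, unadjusted p = 0.0456, adjusted p = 1), without TCPOBOP replicate 4 it was -59.7 points and without vehicle replicate 2 it was -20.8 points. Of the 7 livers, TCPOBOP replicate 4 and vehicle replicate 2 had islands in both regions, and TCPOBOP replicate 2 and vehicle replicate 1 in neither.

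No change of H3K27me3 islands with TCPOBOP was detected in the Cyp2c window. Neither of the 2 regions passed at an adjusted p under 0.05, nor at an unadjusted one; over the genome 0 of 13988 tested regions (0%) passed after adjustment and 542 (3.87%) before it. The 50 kb tile that held both regions had a difference of -3.40 points (SE 9.08, limma adjusted p = 1), where 0 of 23829 tiles (0%) passed after adjustment and 942 (3.95%) before it. Without TCPOBOP replicate 2 or vehicle replicate 2 the tile's difference turned to 0.267 or 3.00 points. Over the whole window, cover averaged 5.50 ± 5.14 kb in TCPOBOP livers (SD, n = 4) and 7.20 ± 6.84 kb in vehicle livers (SD, n = 3). The difference was -1.70 kb, less than either SD (95% interval -14.5 to 14.3 kb, exact permutation p = 0.686), and without TCPOBOP replicate 2 or vehicle replicate 2 it turned to 0.133 or 1.50 kb. It was -4.00 kb without TCPOBOP replicate 4, -5.30 kb without vehicle replicate 1 and -7.20 kb with all lists brought to equal total length (exact permutation p = 0.143). In that last setting only islands of vehicle livers remained in the window. TCPOBOP livers had 1.00 ± 0.816 islands and vehicle livers 1.00 ± 1.00 (95% interval of the difference -2.25 to 2.25, exact permutation p = 1). The longest free stretch within the bounds averaged 1141.6 ± 172 kb in TCPOBOP livers and 1177 ± 193 kb in vehicle livers, a difference of -35.5 kb (95% interval -344 to 567 kb, exact permutation p = 0.600). Without vehicle replicate 1 it turned to 76.0 kb, and it was -122 kb without TCPOBOP replicate 2, -96.2 kb without vehicle replicate 2, -86.2 kb without vehicle replicate 3, and between -6.93 and -6.53 kb without TCPOBOP replicate 1, 3 or 4. The adjusted p over these 3 measures was 1 for each, and the smallest p that 4 against 3 livers allow is 0.0286. Their 95% intervals assume a pure shift between groups and reach differences that the measures cannot take, so they are rough. 

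All 7 islands were weak for their lists. The authors' score of an island sums the evidence of its 400 bp windows, and the lowest score kept in a list differed between livers. In the narrow region the score was 74.4 in TCPOBOP replicate 1, 77.4 in TCPOBOP replicate 3 and 85.6 in TCPOBOP replicate 4, against 86.3 in vehicle replicate 2. In the wider region it was 74.7 in TCPOBOP replicate 4, against 80.8 in vehicle replicate 2 and 104 in vehicle replicate 3. Between 0.0544% and 23.2% of the islands of the same list scored lower, and 0 of the 7 reached the first quartile of its list. The wider island of TCPOBOP replicate 4 ranked 11 from the bottom of 18399.

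The lists differed in the lowest score they kept, and that of vehicle replicate 1, a liver with no island in the window, was the highest of the 7. The lowest score of the list was 66.6, 77.5, 76.3 and 74.7 in TCPOBOP replicates 1 to 4, and 100.7, 75.4 and 79.4 in vehicle replicates 1 to 3. Of the 7 islands, 1 scored at least as high as the lowest island of vehicle replicate 1, and 4 at least as high as that of TCPOBOP replicate 2. Scores of different lists depend on depth, so this sets them side by side only as values. With 1 common lowest score of 100.7 for all lists, the island of vehicle replicate 3 alone was kept and the difference in cover was -2.67 kb (exact permutation p = 0.429), a setting added after the data were examined. For TCPOBOP replicate 2 and vehicle replicate 1, absence means only that no island passed the limit of that list.

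**Figure D4:**
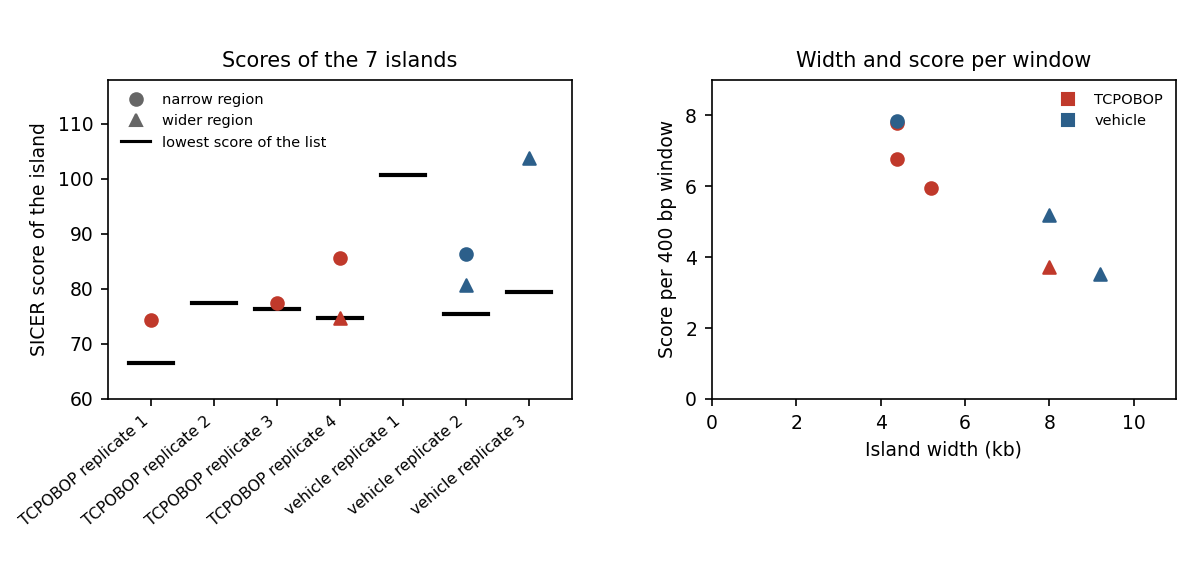
Left, the SICER score of each of the 7 islands by liver (circles, narrow region; triangles, wider region; TCPOBOP red, vehicle blue), with a black line at the lowest score of that liver's list; the axis starts at 60. Right, the score per 400 bp window of the same islands against their width in kb; the narrow islands of 4.40 to 5.20 kb lie above the wider ones of 8.00 to 9.20 kb.

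The islands of the Cyp2c window were narrow for their lists. In the narrow region the width was 4.40 kb in TCPOBOP replicate 1, 5.20 kb in TCPOBOP replicate 3 and 4.40 kb in TCPOBOP replicate 4, against 4.40 kb in vehicle replicate 2. At most 0.264% of the islands of the same list were narrower, and the median widths of these 4 lists were 20.8 to 23.6 kb. In the wider region the width was 8.00 kb in TCPOBOP replicate 4, against 9.20 kb in vehicle replicate 2 and 8.00 kb in vehicle replicate 3, and 1.28% to 4.04% of the islands of the list were narrower.

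The score per window of the narrow region was 6.77 in TCPOBOP replicate 1, 5.95 in TCPOBOP replicate 3 and 7.78 in TCPOBOP replicate 4, against 7.84 in vehicle replicate 2. Between 93.9% and 97.8% of the islands of the same list had a lower value. In the wider region it was 3.74 in TCPOBOP replicate 4, against 3.51 in vehicle replicate 2 and 5.19 in vehicle replicate 3, and 61.4% to 92.3% of the list was lower. All 7 islands lay above the median of their list, which the lowest listed score already required at these widths. In the narrow region an island needed at least 6.05, 5.87 and 6.79 per window in TCPOBOP replicates 1, 3 and 4. In vehicle replicate 2 it needed 6.86. In the wider region the least was 3.73 in TCPOBOP replicate 4, 3.28 in vehicle replicate 2 and 3.97 in vehicle replicate 3. The medians of these lists were 2.65 to 3.02. Among listed islands at most as wide, 10 of 59, 0 of 52, 8 of 38 and 9 of 61 had a lower value than the narrow-region island, in the same order. For the wider region these were 0 of 401, 23 of 768 and 99 of 279.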

How the data were processed

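The deposited values were a list of islands for each liver with a score for each island, which is the authors' own. Per the submitters' processing notes, Bowtie2 2.3.2, SICER 1.1 and the build mm9 were used, and per the names of the lists the window was 400 bp, the gap 2400 bp and the E-value 100. Input control and duplicate handling are not given in the sources used here. The lists hold no read numbers, so the depth is unknown. Per the labels, the descriptions of all samples carry the same flow cell and lane code.

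Starts were read as counted from 0. Cover is island length clipped to the bounds. For whole-window measures the groups were compared by exact permutation (two-sided, 35 splits), with 95% intervals by inversion of the test. Islands of all livers were merged where they overlapped or touched (17394 regions), and the covered fraction of regions, and of fixed 50 kb tiles, was fitted in R 4.3.3 by limma 3.58.1, with variance trend and robust estimation, where at least 2 livers had an island and the fractions differed, with Benjamini-Hochberg adjustment over all tested and a threshold of 0.05. Tiles of 1400 kb lay between the first and last island of each autosome. Other steps used Python 3.11.15 and NumPy 2.4.6. The fits were tested on simulated fractions of normal spread, and on real tiles with cover set to 0 in TCPOBOP livers. Regions that are mostly covered or free by liver, as both in the window are, were not simulated.

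Every region and island in the window is reported: full values were planned for regions in all livers, for the widest cover and for the 5 largest differences, which includes both. The gene bounds comparison needed an mm9 annotation and was not run. For the same reason the lists of other CAR target genes and of liver marker loci got no values. The window, members and lists were chosen with earlier results of these data known.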

Additional observations from a re-analysis of the deposited data

Results flagged for a closer look

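Of 8 per-liver measures, 1 set a single TCPOBOP liver far from the remaining 3. For any 1 measure with a normal spread this happens by chance in about 1 in 20, so a flag among 8 is less unusual than that. The rate does not hold for the flagged measure, which takes 1 fixed value in every liver without an island. The longest island-free stretch inside the Cyp2c window was 1400 kb, the whole window, in TCPOBOP replicate 2, against 1054.8 to 1056 kb in the other TCPOBOP livers. Any liver with no island in the window takes this value by definition, and vehicle replicate 1 had it as well. The lowest score kept in these 2 lists was 77.5 and 100.7; the part of that limit in the missing islands was not tested.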

How the results depend on the processing

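The low cover of the window against its sides kept its direction and its side of the threshold in all 10 alternatives, between -31.6 and -28.2 points. Leaving out 1 liver in turn could change neither, because cover was lower in all 7 livers, so those runs add no support. With scores from the first quartile up 0 islands were left in the window. The value of that setting, -29.2 points, therefore reflects only the cover of the sides. The differences between TCPOBOP and vehicle livers in the window passed no exact permutation test and no limma test at an adjusted p under 0.05 under any alternative run, but the signs of those in cover, number of islands, free stretch and 50 kb tile were not stable. Cover turned to 1.70 kb more with TCPOBOP in the wider window, was -7.20 kb with lists of equal total length, and ran from -5.30 to 1.50 kb when livers were left out in turn. The number of islands ran from -0.500 to 0.500 with livers left out in turn and was -1 with lists of equal total length. The longest free stretch turned to 223 kb with lists of equal total length and to 108 kb with a common lowest score, and ran from -122 to 76.0 kb without single livers. The 50 kb tile ran from -10.6 to 3.00 points without single livers. With lists of equal length 3 islands remained in the window, all of them in vehicle livers. The length used was that of the shortest list, vehicle replicate 2 with 537.22 Mb, so the list of that liver was not cut. With scores from the first quartile up 0 islands remained, so that setting gave no difference between the groups there. Over the genome limma without trend and robust variance called 13 regions and 1 tile, and without the minimum of 2 livers 1 region; neither region of the window was called. The replicate numbers were not shown to pair the livers: deviations of same-numbered livers correlated at 0.0269, 0.278 and 0.0693, and 1 of 3 vehicle livers correlated best with its own number. A replicate block compares replicates 1 to 3 only, since no vehicle liver shares a number with TCPOBOP replicate 4. Its differences were -4.00 kb in cover, -0.333 in islands and -6.80 kb in the free stretch. These equal the differences without TCPOBOP replicate 4. With the block 0 regions and 0 tiles were called. The cause of the other shifts was not tested. The lists hold no read numbers, so no limit set by depth can be given.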
